A study of Mus musculus with 30 samples.

Results

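A set of 8 genes of the heat shock and chaperone system, given by symbol as Hspa1a, Hspa1b, Hsp90aa1, Dnajb1, Hspb1, Hspa8, Hsph1 and Hspa5, were followed through digit tip regeneration in the mouse. They were given by name, with earlier results of these data known, and all 8 were found among the 20321 genes of the expected count and TPM tables. RNA came from the distal phalanx (P3) of hindlimb digit 3 in 30 adult male C57Bl/6 mice, 9 to 10 weeks old, 1 library per mouse. At most 33% of the phalanx had been removed in every mouse, and this amount of loss is regenerated. Digits were collected at the amputation itself (0 h), after 3 h, 6 h, 12 h and 24 h, and again after 3 d, 14 d and 21 d, with 3 mice each, and after 7 d with 6 mice. Every mouse was amputated, the 0 h mice are the only baseline, and no unamputated digit was part of the 30 libraries. No genotype or agent other than the amputation separates the groups. The study counts 30 mice, but 1 code stands with the same date in the titles of 0 h replicate 3 and 12 h replicate 2, and the labels do not say whether it marks the same mouse.

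Heat shock proteins bind unfolded or partly folded proteins and help them reach or regain their shape. The 70 kDa family works in an ATP-driven cycle in which J-domain proteins deliver clients and exchange factors reset the cycle, the 90 kDa family acts late on signalling proteins such as kinases and steroid receptors, and small heat shock proteins hold clients without ATP. In the cytosol the inducible genes are switched on by heat shock factors that bind arrays of inverted GAA units, while the endoplasmic reticulum has its own set of chaperones, driven by the unfolded protein response. In skin, several of these genes are expressed without any stress.

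Where a promoter window was given by RefSeq (GRCm38.p6), the letters that these factors are known to bind were searched from 250 bases before to 50 bases after each annotated start. Windows were given for 6 of the 8 members, 8 windows in all, and Hsp90aa1 and Hspa8 had no entry. Of the cytosolic members, the inducible pair Hspa1a and Hspa1b and the genes Hspb1 and Hsph1 hold paired GAA units, and Hspa5 holds the endoplasmic reticulum stress element. The stretches before the start that carry these letters are printed 5′ to 3′ on the strand of the gene, with the matched letters in capitals, because they are the stretches in which the searched letters were found.

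Hspa1a, chr17:34972228-34972285, minus strand: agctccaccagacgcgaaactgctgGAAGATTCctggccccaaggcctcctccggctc
Hspa1b, chr17:34959310-34959367, minus strand: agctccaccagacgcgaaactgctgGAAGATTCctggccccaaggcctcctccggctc
Hspb1, chr5:135887777-135887854, plus strand: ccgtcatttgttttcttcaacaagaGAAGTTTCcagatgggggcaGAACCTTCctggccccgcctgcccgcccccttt
Hsph1, chr5:149636337-149636394, minus strand: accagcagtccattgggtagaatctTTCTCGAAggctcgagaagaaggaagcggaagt
Hspa5, chr2:34772000-34772068, plus strand: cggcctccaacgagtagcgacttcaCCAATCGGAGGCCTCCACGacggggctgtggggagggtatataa

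The head to head pair GAANNTTC was found 104 bases before the start in both Hspa1a and Hspa1b, and 117 and 97 bases before the start in Hspb1. The tail to tail pair TTCNNGAA lies 33 bases before 1 annotated start of Hsph1 and 54 bases before its other start. In Hsph1 both pairs also occur after the start, overlapping each other. The stress element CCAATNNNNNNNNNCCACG begins 65 bases before the start of Hspa5, and none of the 3 motifs was found in the 2 windows of Dnajb1. Searched on both strands in all 32851 promoter windows of the same length, GAANNTTC was found in 7.86%, TTCNNGAA in 8.52%, either pair in 15.1% and the stress element in 0.119%. A match describes letters in a window and is neither a shown binding site nor a cause of any value here.

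Hspa1a and Hspa1b are single-exon genes on the minus strand of chromosome 17 (GRCm38, chr17:34969190-34972156 and chr17:34956436-34959238), 9952 bases apart. Their promoter windows differ at 4 of 300 positions, and the printed stretches are identical. In the transcripts, 56.5% of all 65-base stretches of Hspa1a and 58.3% of those of Hspa1b occur in another gene, in each case the other copy or Hspa1l, and 65 bases is the read length of these libraries. No such stretch is shared by the other 6 members. No shared stretch reaches beyond base 2181 of 2967 in Hspa1a or base 2184 of 2803 in Hspa1b, counted from the 5′ end. Only exact matches were searched, for all 8 members. Stretches that differ by up to 2 bases, which the mapping of the reads allowed, were not. How the reads were divided between the copies is therefore uncertain, and both the single genes and their sum are given.

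The other members are spread over the genome. On GRCm38, Hspa8 lies at chr9:40800984-40810087, Dnajb1 at chr8:83608193-83612653, Hsph1 at chr5:149614287-149636376, Hsp90aa1 at chr12:110690605-110702728, Hspb1 at chr5:135887919-135889563 and Hspa5 at chr2:34771970-34777547.

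The libraries held 3167625 to 16277816 expected counts, with a median of 6103688, and the 8 members together held 0.277% to 0.427% of them. Dates in the sample titles fall into July and August for 16 mice and November to January for 14 mice, called the earlier and the later dates here, and median totals were 5083528 and 9836324. All mice at 3 h and 12 h have earlier dates and all mice at 21 d later ones. At 0 h there were 1 earlier and 2 later mice, so that time and date cannot be fully told apart at 3 h, 12 h and 21 d. At 7 d, 3 of 6 mice are labelled left foot, all others right foot. Among marker genes, no keratinocyte, fibroblast or osteoblast marker was at 0 in all mice of any time point, though Bglap had only 0.405 ± 0.701 CPM at 3 d. The osteoclast, endothelial, smooth muscle, macrophage and Schwann cell lists met this too, so that it does not test the tissue label. The 8 keratinocyte markers summed to 63290 ± 899 CPM at 0 h. CPM are counts scaled to a common library size after TMM normalisation, and the value after ± is the SD over the mice named, 3 mice at a time point and 6 at 7 d. In such bulk tissue, fewer cells of a type and less RNA per cell cannot be told apart.

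All 8 genes were expressed in every mouse, the lowest expected count being 174 for Hsph1 in a single library. On the TPM scale, which is corrected for transcript length and allows genes to be compared, Hspa8, the constitutive cytosolic member of the 70 kDa family, stood highest at 1560 ± 272 TPM (SD, n = 30). Hspa5 at 512 ± 102 TPM and Hspb1 at 496 ± 119 TPM followed and did not differ beyond their spread. Below them came Hsp90aa1 at 323 ± 77.7 TPM and Hspa1b at 274 ± 51.8 TPM, again within the spread of each other. Hspa1a and Hspa1b added had 360 ± 72.4 TPM, so that the places of the single copies in this order rest on how their reads were divided.

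The lowest levels were those of Dnajb1 at 90.8 ± 17.1 TPM, Hspa1a at 86.4 ± 30.4 TPM and Hsph1 at 42.2 ± 14.9 TPM. Over all 30 mice the level of a gene varied least for Hspa8, 2.03-fold from 1042 to 2119 TPM, and most for Hsph1, 4.18-fold from 20.5 to 85.8 TPM. Hspa1a, with 49.2 to 149 TPM, was next at 3.03-fold. On CPM the order at both ends differed, with Hspa5 lowest at 1.94-fold (Hspa8 2.08-fold) and Hspa1a highest at 3.68-fold (Hsph1 3.63-fold). At 0 h the inducible Hspa1b had 329.6 ± 76.6 TPM and Hsp90aa1 286 ± 53.4 TPM, within the spread of each other.

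**Figure D1:**
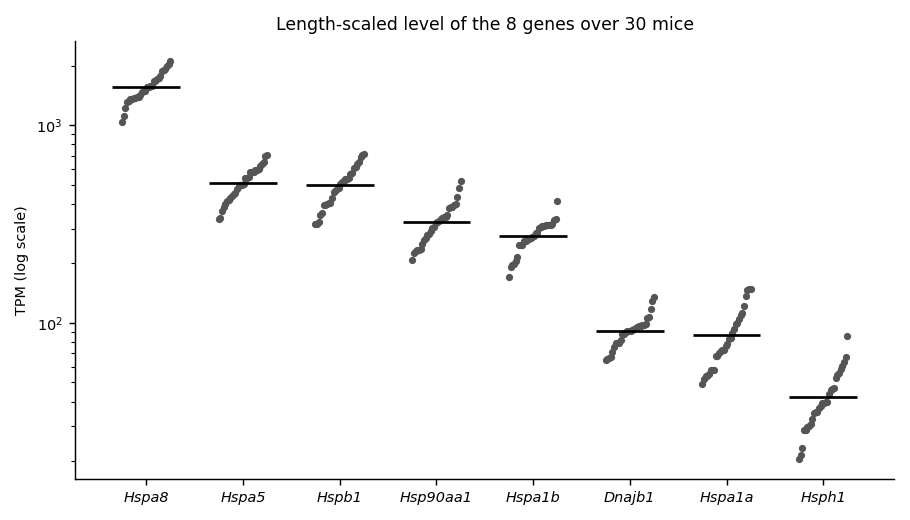
Level of each member in TPM on a log axis, 1 point per mouse sorted by value, with the mean of 30 mice as a line. Hspa8 lies above all other members, and Hsph1 is lowest in the mean.

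Over the 9 time points 2 members changed, Hspa1a (adjusted p = 0.00614) and Hsph1 (adjusted p = 0.0236), by the quasi-likelihood F-test of edgeR on counts, Benjamini-Hochberg adjusted over all genes tested. Of all 13793 genes tested, 9.01% had an adjusted p under 0.05. The adjusted p of the other members was 0.0779 for Hspb1, 0.16 for Hspa1b, 0.182 for Dnajb1, 0.519 for Hspa8, 0.561 for Hspa5 and 0.824 for Hsp90aa1. Of the members, 5 had an unadjusted p under 0.05, as had 24.1% of all genes. The dates were not in this fit. With the date set as a covariate, Hspa1b also passed (adjusted p = 0.031), in a fit that called 12.2% of all genes. With DESeq2's likelihood ratio test 4 members passed, these 2 with Hspa1b and Hspb1, and 18.1% of all genes.

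Hspa1a encodes one of the stress-inducible 70 kDa proteins of the cytosol. Its level was 139, 170.0 and 146 CPM in the 3 mice at 0 h and 196, 217 and 234 CPM at 3 h. It was 112, 110.1 and 139 CPM at 6 h, 105, 84.7 and 101 CPM at 12 h, and 63.7, 68.2 and 101 CPM at 24 h. All 3 h mice were above all 0 h mice, and all mice from 6 h to 24 h were below them, though at 6 h only by a margin of less than 1 CPM.

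At 3 d the 3 mice had 112, 134 and 70.4 CPM, at 14 d 70.8, 89.3 and 78.2 CPM and at 21 d 84.9, 95.9 and 112 CPM. The 6 mice at 7 d ran from 80.9 CPM through a median of 106 to 235 CPM, and the highest of them, a left-foot mouse, matched the 3 h level. Among the times after 3 h, only the 7 d mice reached into the 0 h range of Hspa1a. The mean was highest at 3 h, 216 ± 18.7 CPM, and lowest at 24 h, 77.8 ± 20.6 CPM, a ratio of 2.77, and the highest mean exceeded the next, that of 0 h, by more than either SD.

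Against 0 h the log2 fold change of Hspa1a was 0.51 at 3 h (standard error, SE, 0.28, adjusted p = 0.541), -0.97 at 24 h (SE 0.29, adjusted p = 0.185) and -0.93 at 14 d (SE 0.29, adjusted p = 0.121). None of these passed on its own. Within the earlier dates the difference in mean log2(CPM + 1) was 0.56 at 3 h, with 1 mouse at 0 h, and -1.13 at 24 h, and within the later dates -0.60 at 24 h, with 1 mouse at 24 h. Without the 3 left-foot mice of 7 d, the edgeR adjusted p was 0.0167 at 24 h, where 0.7% of all genes passed, and 0.01 at 14 d, where 2.14% passed, and leaving out the 7 d mouse with 235 CPM alone also gave a call at both times.

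The genes most like Hspa1a over the 30 libraries were Ccdc9 (r = 0.775), Hip1r (r = 0.735) and Zfp954 (r = 0.725), and Hspa1b was not among the nearest 3 although the copies share reads (r = 0.631). Here and for the other members r is Pearson's r of log2 CPM, given as a description, since the libraries share time points, dates and depth.

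Hspa1b, the second inducible copy, had 428, 554 and 323 CPM at 0 h and 427, 460.3 and 472 CPM at 3 h. By 14 d it stood at 282, 234 and 254 CPM, below all 0 h mice. The mean was 435 ± 116 CPM at 0 h, 453 ± 23.6 CPM at 3 h and 257 ± 23.8 CPM at 14 d. The 14 d contrast gave a log2 fold change of -0.76 (SE 0.21, adjusted p = 0.0662, edgeR). With the date set as a covariate it was -0.73 (adjusted p = 0.026, with 2.5% of all genes called), and by DESeq2's test -0.76 (adjusted p = 0.0171, with 2.48% called).

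At the times between, from 6 h to 7 d, all mice lay between 265 and 434 CPM of Hspa1b. It had 344, 387 and 376 CPM at 6 h, 372, 346 and 328 CPM at 12 h, and 336, 320.2 and 369 CPM at 24 h. At 3 d it had 368, 305 and 394 CPM, and at 7 d a median of 377 CPM, with both the lowest and the highest of these mice. At 21 d 2 mice stood at 251 and 268 CPM, near the 14 d level, and 1 at 432 CPM, inside the 0 h range.

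The 0 h baseline of Hspa1b differed by date. The 1 earlier mouse had 323 CPM and the 2 later mice a mean of 491 CPM, and the 14 d difference in mean log2(CPM + 1) was -0.20 within the earlier dates (1 mouse against 1) and -0.99 within the later dates (2 against 2). No test was made within dates.

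When the counts of both copies were added before the fit, which leaves no reads to divide between them, though stretches shared with Hspa1l remain, the sum changed over the time course (adjusted p = 0.0364, edgeR). The sum was 587 ± 129 CPM at 0 h, with 469 to 724 CPM among the mice, and 669 ± 42.1 CPM at 3 h, with 623 to 706 CPM. It was 336 ± 14.9 CPM at 14 d, with 324 to 353 CPM, so that the highest 14 d mouse was below the lowest 0 h mouse. The sum fell by 0.80 on the log2 scale at 14 d (SE 0.21, adjusted p = 0.039), the only 1 of 8 later times that passed against 0 h.

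Neither call on the sum was firm. Leaving out 1 mouse at a time gave an adjusted p between 0.013 and 0.102 over the time course and between 0.0195 and 0.359 at 14 d, and the calls remained in 13 and 18 of the 30 cases. The highest values followed from leaving out 3 h replicate 3 and 0 h replicate 2 (the mouse with 724 CPM, without which the 14 d log2 fold change was -0.60). Within the dates the 14 d difference was -0.41 (earlier, 1 mouse against 1) and -0.97 (later, 2 against 2).

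Of the counts assigned to both copies, Hspa1a took 26.4 ± 4.11% at 0 h, 32.2 ± 0.818% at 3 h and 18.4 ± 2.89% at 24 h. The 3 h mice lay between 31.5% and 33.1% and the 24 h mice between 15.9% and 21.6%, without overlap. From 3 d to 21 d the mean was between 23.0% and 25.1%, with a wide spread at 3 d and 7 d. The highest 7 d mouse had 35.8%, above all 3 h mice, and the lowest 3 d mouse 15.2%, below all 24 h mice. The share rests on the reads that can be placed and on the estimate by which the rest were divided, and it was not tested.

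**Figure D2:**
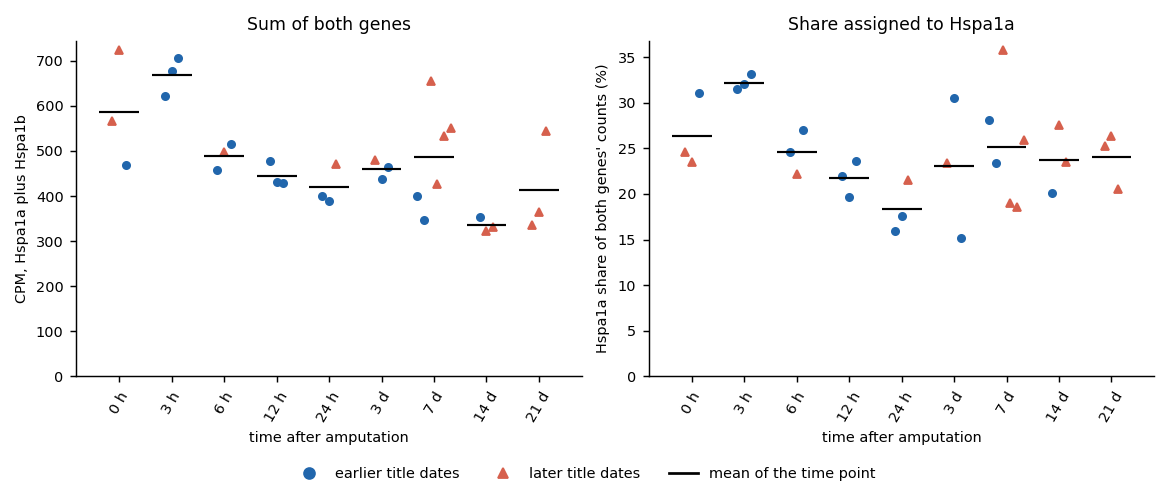
Left, CPM of Hspa1a and Hspa1b added, and right, the percent of their expected counts assigned to Hspa1a, per mouse and time point, with circles for earlier and triangles for later title dates and a line at each mean. The mean sum is lowest at 14 d (336 CPM), and the mean share is highest at 3 h (32.2%) and lowest at 24 h (18.4%).

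The sum of the keratinocyte markers, most of it Krt1 and Krt10, had its highest means at 0 h and 3 h. The 8 markers summed to 64600 ± 24930 CPM at 3 h and 33850 ± 3525 CPM at 14 d, where the mice ran from 29920 to 36720. Of the 8 markers, 4 had their highest mean at 0 h or 3 h (Krt1, Krt5, Krt10 and Col17a1) and 6 their lowest at 14 d. The 1 marker that passed the F-test over time, Krt15 (adjusted p = 0.0476), was highest at 3 d and lowest at 21 d. The genes most like Hspa1b over the 30 libraries included Ppl, encoding the cornified envelope protein periplakin (r = 0.816), and Krt10, a keratin of differentiated epidermis (r = 0.803). Krt10 itself had 28360 ± 10310 CPM at 3 h and 12970 ± 147 CPM at 14 d. The part of keratinocyte content in the values of Hspa1b was not tested. In the same mice fibroblast markers summed to 5161 ± 2269 CPM at 0 h and 33660 ± 2534 CPM at 14 d, and osteoblast markers to 240.3 ± 125 and 2343 ± 792 CPM. Most of the fibroblast sum was Col1a1 and Col1a2, and most of the osteoblast sum Ibsp. These 3 genes and Lum (adjusted p = 0.000457) passed the edgeR F-test over time. The fibroblast markers Pdgfra (adjusted p = 0.424) and Dpt (adjusted p = 0.195) did not and were highest at 7 d.

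**Figure D3:**
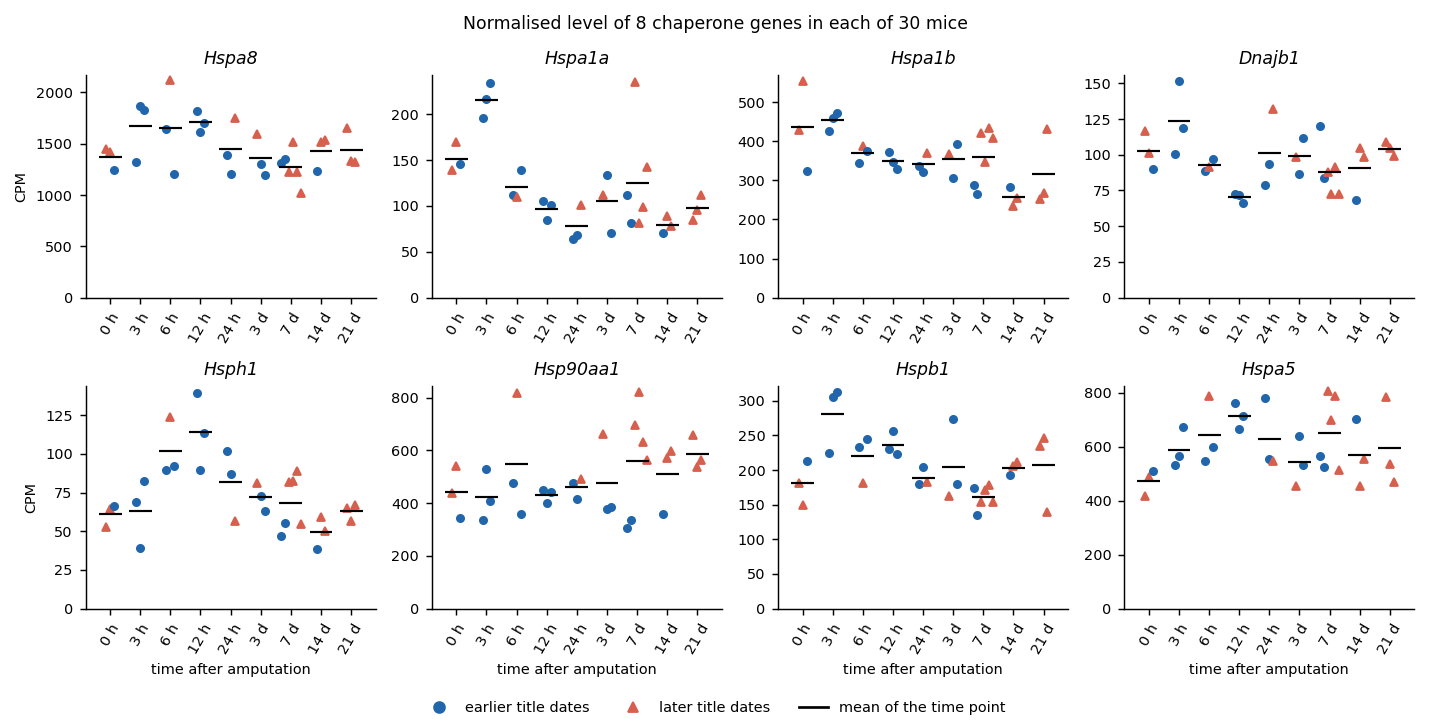
CPM of the 8 members in each mouse by time point, axes from 0, with circles for earlier and triangles for later title dates and a line at the mean. The mean of Hspa1a is highest at 3 h (216 CPM) and that of Hsph1 at 12 h (114 CPM), and within each time point the triangles lie above the circles in Hsp90aa1.

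Hspa8, the constitutive 70 kDa chaperone, had its highest mean at 12 h (1711 ± 101 CPM) and its lowest at 7 d (1274 ± 167 CPM), a ratio of 1.34. All 12 h mice (1816, 1613 and 1705 CPM) were above all 0 h mice (1449, 1424 and 1245 CPM). The log2 fold change at 12 h was 0.32 (SE 0.21, adjusted p = 0.749), and no neighbours in the order of its time means differed by more than the larger SD. Its values at 3 h (1323, 1872 and 1829 CPM) and 6 h (1641, 2119 and 1204 CPM) reached from within or just under the 0 h range to well above it. From 24 h on the mice lay between 1017 CPM, at 7 d, and 1750.0 CPM, at 24 h, around the 0 h level. The genes most like Hspa8 were Cct8, a subunit of the chaperonin TRiC (r = 0.694), Psma7, a proteasome subunit (r = 0.688), and Eif2s1, a subunit of a translation initiation factor (r = 0.687).

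Dnajb1, the J-domain partner that delivers clients to the inducible 70 kDa proteins, had 117, 101 and 90.1 CPM at 0 h and 100.3, 152 and 119 CPM at 3 h. At 12 h its values were 72.5, 72.1 and 66.5 CPM, below all 0 h mice. The mean was 124 ± 26.2 CPM at 3 h and 70.4 ± 3.39 CPM at 12 h, its highest and lowest. The log2 fold change at 12 h against 0 h was -0.54 (SE 0.20, adjusted p = 0.522), and Dnajb1 passed in no comparison. The 24 h mice, at 79.0, 93.6 and 132 CPM, were again all above the 12 h mice, with 1 of them above the 0 h range, and the 21 d mice (109, 104 and 99.2 CPM) lay within it. Most like Dnajb1 were Gp1bb, encoding a platelet glycoprotein subunit (r = 0.675), Fis1, a factor of mitochondrial fission (r = 0.674), and Eif1, a translation initiation factor (r = 0.666), the lowest such values of the cytosolic members.

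Hsph1, the 110 kDa exchange factor that releases nucleotide from 70 kDa chaperones, had 52.9, 64.7 and 66.4 CPM at 0 h and 68.9, 38.9 and 82.4 CPM at 3 h. It had 89.7, 124 and 92.2 CPM at 6 h and 139, 89.7 and 114 CPM at 12 h. All mice at 6 h and 12 h were above every 0 h and every 3 h mouse.

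At 24 h the values of Hsph1 were 102, 86.7 and 56.6 CPM, and at 3 d 81.2, 72.6 and 63.1 CPM. The 7 d mice ran from 47.1 CPM through a median of 68.6 to 89.1 CPM. At 14 d the mice had 38.3, 59.0 and 50.5 CPM and at 21 d 65.3, 56.9 and 66.8 CPM, which overlaps the 0 h mice. The mean was 114 ± 24.8 CPM at 12 h and 49.3 ± 10.4 CPM at 14 d, a ratio of 2.32 on CPM and 2.47 on TPM.

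Against 0 h the log2 fold change of Hsph1 was 0.73 at 6 h (SE 0.26, adjusted p = 0.444) and 0.90 at 12 h (SE 0.26, adjusted p = 0.286). Within the earlier dates these differences, on log2(CPM + 1), were 0.45 and 0.75 with 1 mouse at 0 h, and within the later dates 1.069 at 6 h, with 1 mouse at 6 h. In a fit of the 0 h and 12 h mice alone, Hsph1 passed (log2 fold change 0.90, adjusted p = 0.0456), as did 0.873% of all genes. The call over the time course was lost when either of 2 mice at 12 h or the earlier mouse at 14 d was left out, with an adjusted p from 0.0501 to 0.0831.

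Among the 3 genes most like Hsph1 was Chordc1 (r = 0.742), a partner of 90 kDa chaperones that is itself among heat shock factor targets. The others were Mettl16, encoding an RNA methyltransferase (r = 0.784), and Lace1 (r = 0.771). Chordc1 also changed over time (adjusted p = 0.0265), from 57.8 ± 4.84 CPM at 3 h to 110.2 ± 19.4 CPM at 12 h, the time point at which Hsph1 was highest.

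Hsp90aa1, the stress-inducible form of the 90 kDa chaperone, did not pass over the time course, and its means ran from 425 ± 99.3 CPM at 3 h to 586 ± 64.6 CPM at 21 d. It was the 1 member that differed between the date sets, by a log2 fold difference of 0.75 (later minus earlier, SE 0.11, adjusted p = 6.37e-06, edgeR with time points in the fit). Of all genes tested, 24.1% differed between the dates, so Hsp90aa1 was 1 of 8 members against a background of that size. Its mean was 613 ± 111 CPM (SD, n = 14) in later and 400 ± 61.7 CPM (SD, n = 16) in earlier mice.

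At each of the 6 time points that hold both date sets, every later mouse was above every earlier mouse in Hsp90aa1. At 0 h the later mice had 440 and 541 CPM and the earlier mouse 345 CPM. At 6 h the later mouse had 817 CPM and the earlier mice 476 and 357 CPM. At 24 h the values lay closer, 490 CPM against 475 and 414 CPM.

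At 3 d the later mouse had 660.2 CPM and the earlier mice 379 and 385 CPM of Hsp90aa1. At 7 d the later mice had 695, 820.1, 632 and 562 CPM and the earlier mice 307 and 337 CPM, a ratio of means of 2.10. At 14 d it was 569 and 598 CPM against 358 CPM. The 2 lowest time means of Hsp90aa1, at 3 h and 12 h, rest on earlier mice alone and the highest, at 21 d, on later mice alone. The median total was larger in the later mice, though the later 24 h mouse had 4843416 counts and the earlier ones 6112761 and 5833305, and the part of depth, sequencing or collection in this difference was not tested.

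The genes most like Hsp90aa1 over the 30 libraries were Lyar (r = 0.894), Ubxn4 (r = 0.894) and Nop58, a core protein of nucleolar box C/D particles (r = 0.878), and around the time means these were 0.915, 0.924 and 0.942. Within a time point and without dates in the fit, its biological coefficient of variation was 27.6%, against a median of 19.9% over 3973 genes with a mean over 50 CPM. With the date set in the fit it was 17.1%, near the median of 16.7%, and Hspa1a (22.8%) and Hsph1 (21.2%) were then the most variable members.

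Hspb1, a small heat shock protein that holds unfolding clients and is abundant in epidermis, had 182, 150 and 213 CPM at 0 h and 225, 305 and 313 CPM at 3 h. At 12 h it had 231, 256 and 222 CPM. All mice at 3 h and 12 h were above all 0 h mice, and all of these mice but 2 at 0 h have earlier dates. The log2 fold change was 0.63 at 3 h (SE 0.21, adjusted p = 0.23), and within the earlier dates the difference was 0.38, with 1 mouse at 0 h. Its lowest mean was 161 ± 16.2 CPM at 7 d, below the 3 h mean of 281 ± 48.5 CPM. The F-test over time gave an adjusted p of 0.0779, and of 0.0191 by DESeq2, and leaving out 3 d replicate 2 or 21 d replicate 3 gave 0.04 and 0.04435 by edgeR.

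At 6 h Hspb1 had 233, 181 and 245 CPM, the lowest of them the later-dated mouse, and at 24 h 180.2, 204 and 183 CPM, within the 0 h range. At 3 d the mice had 162, 273 and 179 CPM, at 14 d 192, 206 and 211 CPM and at 21 d 235, 246 and 139 CPM. The spread at 3 d and 21 d came from 1 mouse each, high at 3 d and low at 21 d. Most like Hspb1 were Chit1, a chitinase (r = 0.768), Pttg1ip (r = 0.756) and Napa, a factor that takes apart membrane fusion complexes (r = 0.735).

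Hspa5, the 70 kDa chaperone of the endoplasmic reticulum also known as BiP, had 416, 489 and 511 CPM at 0 h, its lowest mean (472 ± 49.6 CPM). At 12 h it had 762, 665 and 712 CPM, its highest mean (713 ± 48.4 CPM), and all 12 h mice were above all 0 h mice. At 3 h, 6 h, 24 h and 7 d, too, no mouse fell into the 0 h range of Hspa5. At 7 d the values ran from 514 CPM through a median of 632 to 807 CPM. The log2 fold change was 0.60 at 12 h (SE 0.23, adjusted p = 0.534) and 0.46 at 7 d (SE 0.20, adjusted p = 0.288), and neither passed. Within the earlier dates, with 1 mouse at 0 h, the difference was 0.48 at 12 h and 0.09 at 7 d, within the later dates 0.61 at 7 d. Values at 14 d (701, 455 and 555 CPM) and 21 d (784, 535 and 470 CPM) reached from the 0 h range to the 12 h level, with the earlier mouse highest at 14 d. The genes most like Hspa5 were Cct5, a subunit of TRiC (r = 0.657), Zmpste24, a metalloprotease that processes prelamin A (r = 0.646), and Nif3l1 (r = 0.59), and Hsph1 was the member nearest to it.

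**Figure D4:**
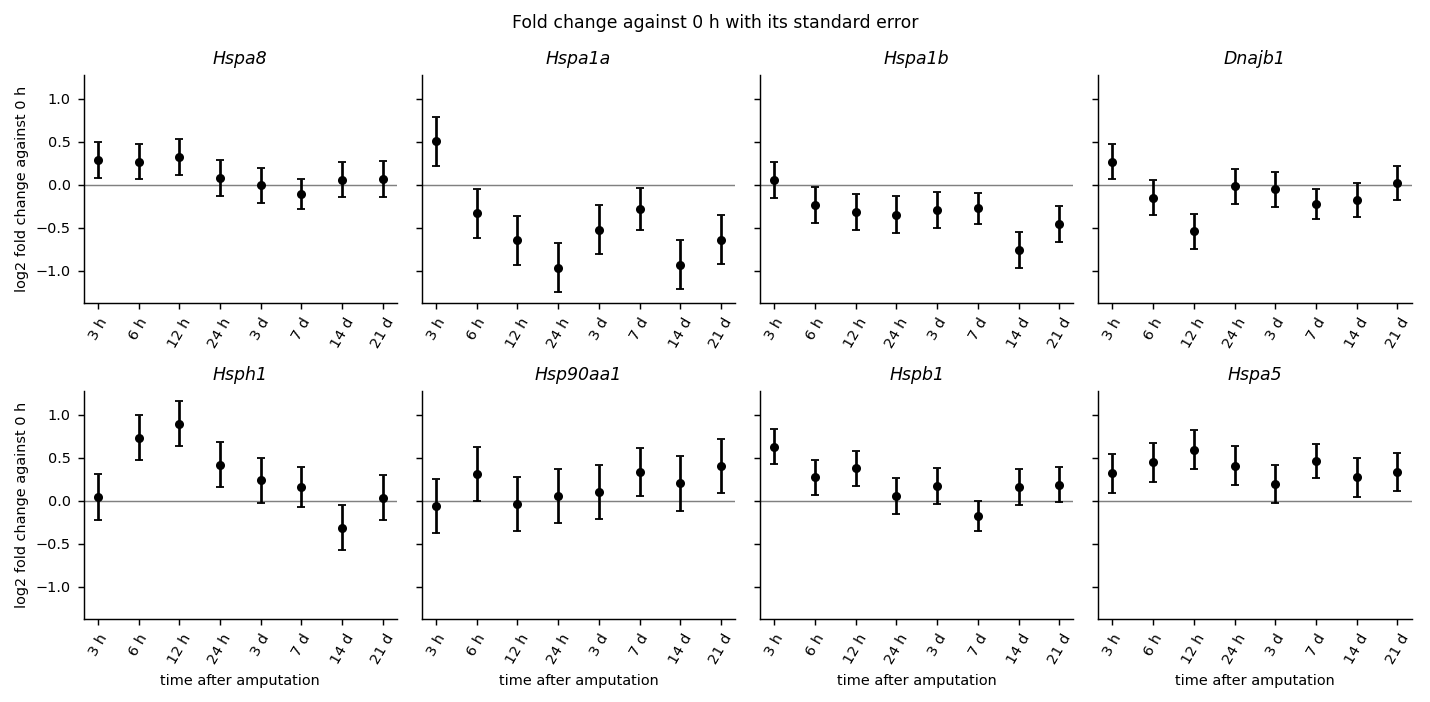
Fitted log2 fold change against 0 h for the 8 members at each later time, with bars of 1 standard error. Hspa1a lies above 0 at 3 h and below it from 6 h on, Hsph1 peaks at 12 h with 0.90, and no point reached an adjusted p under 0.05.

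In all, 64 contrasts of a member against 0 h were tested and 0 passed by edgeR, the lowest adjusted p being 0.0662 for Hspa1b at 14 d, while 12 had an unadjusted p under 0.05. Of all genes, 6.66% to 13.3% had such a p at a later time. No fitted change exceeded 1 on the log2 scale. Of all genes, 0.254% passed at 3 h, 0.189% at 6 h, 0.167% at 12 h, 0.493% at 24 h, 0.551% at 3 d, 2.34% at 7 d, 1.61% at 14 d and 1.94% at 21 d. DESeq2's test gave 1 member against 0 h, Hspa1b at 14 d as above. The median log2 fold change of the 8 members was 0.28 at 3 h, against -0.01 over all genes, and -0.06 at 14 d.

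Groups without overlap were most common at 12 h. There 6 of 8 members had all mice on 1 side of all 0 h mice, with Hspb1, Hspa8, Hsph1 and Hspa5 higher and Hspa1a and Dnajb1 lower, and 19.7% of all genes did not overlap. All mice of that time have earlier dates and 2 of the 3 mice at 0 h later ones. Without 12 h replicate 2, whose title shares its code with a 0 h mouse, the same 6 members did not overlap (31.6% of all genes), and without that 0 h mouse 7 did not (38.2%). At the other times the count was 3 at 3 h (19.7% of all genes), 3 at 6 h (17.8%), 2 at 24 h (17.8%), 1 at 3 d (15.2%), 1 at 7 d (7.36%), 2 at 14 d (25.4%) and 1 at 21 d (22.8%). Hspa1a was among them at every time but 7 d.

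Between successive time points no member passed by edgeR. The share of all genes that did was 0.16% for 6 h against 3 h, 0.0% for 12 h against 6 h and for 24 h against 12 h, 0.0653% for 3 d against 24 h, 0.0145% for 7 d against 3 d, 0.435% for 14 d against 7 d and 0.0% for 21 d against 14 d. Unadjusted, 3 members had a p under 0.05 from 3 h to 6 h, with Hspa1a at a log2 fold change of -0.84 (SE 0.29), Dnajb1 at -0.42 and Hsph1 at 0.69, where 10.9% of all genes had such a p. The mice of the 2 times did not overlap in any of these 3, nor in 17.1% of all genes. Over the 56 tests of a member between successive times, 0 passed by edgeR, 0 by DESeq2 and 6 had an unadjusted p under 0.05, as had 1.96% to 12.5% of all genes in 1 step. In the test of whether the time course differed between date sets, no member passed by edgeR or DESeq2 (lowest adjusted p = 0.233 for Hsph1, 2 at an unadjusted p under 0.05, as had 13.1% of all genes), while 0.883% of 13587 genes passed by edgeR.

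Most pairs of members were only weakly related. Over the 30 libraries the 28 pairs of members had a median r of 0.195 in log2 CPM, from -0.46 for Dnajb1 with Hsph1 to 0.631 for Hspa1a with Hspa1b, which share reads. Only 1 other pair, Hsph1 with Hspa5, had an r over 0.5 (0.507). Of the pairs, 9 had an r under 0. Highest means fell at 3 h for Hspa1a, Hspa1b, Dnajb1 and Hspb1, at 12 h for Hspa8, Hsph1 and Hspa5, and at 21 d for Hsp90aa1. Only for Hspa1a did the highest mean exceed the next by more than the larger SD. All mice at 3 h and 12 h have earlier dates and all at 21 d later ones. On TPM the highest time was 0 h for Hspa1b, 12 h for Hspb1 and 7 d for Hsp90aa1 instead, and the others kept theirs.

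Another 75 genes of the same system were read from 7 lists, and 70 of them had enough counts to be tested. Over the time course 5 of the 70 changed: Dnajb4, Chordc1, P4hb, Serpinh1 and Atf4. Of all genes tested 9.01% passed, the background for this count and for the counts of single lists below. The count among the 70 was 2 without 3 h replicate 3, 3 without 3 h replicate 2 and 8 without 7 d replicate 2. Among 23 cytosolic heat shock factor targets and co-chaperones tested these were Chordc1 and Dnajb4, a J-domain protein (adjusted p = 0.0145), which had 120.4 ± 35.1 CPM at 3 h and 61.8 ± 7.21 CPM at 7 d. Of the 3 heat shock factor genes and Hsbp1, which encodes a protein that binds these factors, 0 passed by edgeR (lowest adjusted p = 0.219 for Hsf1), 0 by DESeq2 and 0 at an unadjusted p under 0.05. Hsf2 had 4.55 ± 3.43 CPM at 3 h and 12.2 ± 1.76 CPM at 24 h (adjusted p = 0.419), and Hsf4 stayed under 3 CPM in its highest mean, 2.85 ± 1.02.

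Of 15 endoplasmic reticulum genes 2 changed, and both are folding factors of collagen. Serpinh1, the collagen chaperone HSP47, rose from 62.7 ± 6.81 CPM at 0 h to 282 ± 41.4 CPM at 14 d, by 2.17 on the log2 scale (SE 0.38, adjusted p = 0.00105), and stood 2.008 above it at 21 d (adjusted p = 0.00202). P4hb, a protein disulphide isomerase and subunit of prolyl 4-hydroxylase, rose by 0.73 at 14 d (SE 0.16, adjusted p = 0.00942). These were the only genes of the 7 lists that passed against 0 h at any time. The fibroblast and osteoblast marker sums given above, most of them Col1a1, Col1a2 and Ibsp, rose over the same times, a part that was not tested. Hspa5, the general chaperone of that compartment, was at 0.27 on the same scale at 14 d (adjusted p = 0.894).

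Of 9 regulators of the unfolded protein response 1 changed, Atf4, a transcription factor of the integrated stress response (adjusted p = 0.00952), with 203 ± 52.9 CPM at 3 h and 104 ± 7.19 CPM at 24 h. Of 4 small heat shock protein genes tested 0 passed by edgeR (lowest adjusted p = 0.372), 0 by DESeq2 and 0 unadjusted. Within this list Cryab had 9.77 ± 1.23 CPM at 14 d and 3.95 ± 0.141 CPM at 3 h (adjusted p = 0.51), and Hspb7 1.204 ± 0.761 CPM in its highest mean. The 9 mitochondrial genes gave 0 by edgeR (lowest adjusted p = 0.173 for Clpp) and 0 by DESeq2, with 1, Clpp, at an unadjusted p under 0.05. Hspe1, with 240.9 ± 205 CPM at 7 d and 100.7 ± 23.3 CPM at 3 h, had the largest ratio of means (adjusted p = 0.372 over time, edgeR). Hspe1 also differed between dates, by 1.32 on the log2 scale (later minus earlier, adjusted p = 6.37e-06), and all mice at 3 h were earlier and 4 of 6 at 7 d later. Of 7 subunits of the chaperonin TRiC 0 passed by edgeR (lowest adjusted p = 0.277 for Cct4), 0 by DESeq2 and 0 unadjusted, and Cct3 had 181 ± 42.6 CPM at 6 h and 132 ± 29.9 CPM at 7 d.

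Of the immediate early genes, which respond to wounding within minutes, 7 of 12 changed over time, against 9.01% of all genes. Fosb had 296 ± 120.1 CPM at 0 h and 6.23 ± 1.17 CPM at 12 h (adjusted p = 1.44e-08), and Fos 597 ± 166 and 51.3 ± 33.1 CPM (adjusted p = 4.42e-07). Egr1 (294 ± 18.2 CPM) and Atf3 (31.1 ± 32.3 CPM) were also highest at 0 h. Hspa1a was higher in all 3 mice at 3 h than in any at 0 h, but the difference between these genes was not tested.

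More of the list genes differed between date sets than over time, as did more of all genes (24.1% against 9.01%). Of the 70, 27 differed between dates, 22 of them higher in later mice and 5 lower. Hsp90ab1, the constitutive 90 kDa chaperone of the cytosol, was 0.90 higher on the log2 scale (SE 0.11, adjusted p = 7.02e-07), and Hsp90b1, its endoplasmic reticulum relative, 0.87 higher (adjusted p = 2.34e-07), close to the 0.75 of Hsp90aa1. The co-chaperone Cdc37, which brings kinases to these proteins, was 0.70 higher (adjusted p = 5.90e-06). Calr (1.33), Hspe1 (1.32) and Manf (1.31) differed by more. The 5 lower genes were Hspa4l, Canx, Xbp1, Herpud1 and Serpinh1. The named genes of this paragraph were chosen after their values were seen. Of the lists, 13 of 23 cytosolic genes, 7 of 15 reticulum genes and 0 of 7 TRiC subunits differed by edgeR, against 24.1% of all genes. So did 3 of 9 regulators of the unfolded protein response and 3 of 9 mitochondrial genes. The heat shock factor list gave 1 of 4 and the small heat shock protein list 1 of 4, Hspb8, which is also in the cytosolic list. Of the TRiC subunits 1 passed by DESeq2 and 2 had an unadjusted p under 0.05. Of the members of the 70 kDa family, Hspa1a stood at 0.28 (adjusted p = 0.197), Hspa1b at 0.25 (adjusted p = 0.0854), Hspa8 at 0.24 (adjusted p = 0.0795) and Hspa5 at -0.02 (adjusted p = 0.927).

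**Figure D5:**
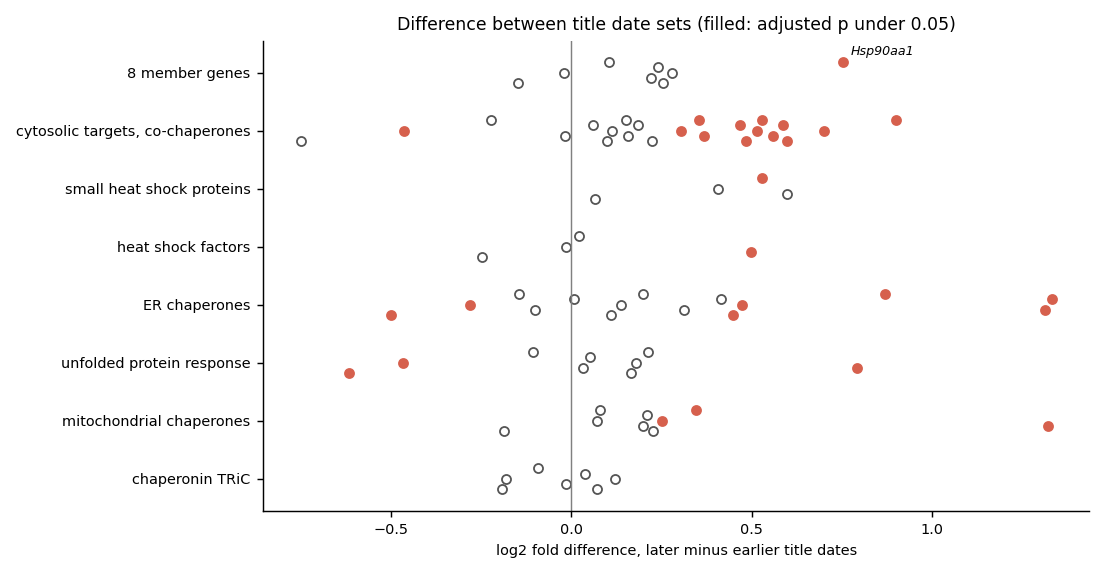
Log2 fold difference between later and earlier title dates, adjusted for time point, for the 8 members and the tested genes of 7 lists, filled where the adjusted p was under 0.05. Hsp90aa1 at 0.75 is the only filled member, and none of the 7 TRiC subunits is filled.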

How the data were processed

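RNA of 30 mice was selected for poly(A), sequenced as single-end reads of 65 bases and mapped by the authors to Ensembl v75 mouse genes with Bowtie, allowing up to 2 mismatches, and the expected counts per gene were estimated by the authors with RSEM 1.2.3. These deposited expected counts are not normalized. The deposited TPM are relative to all transcripts of a mouse. The deposited averages are a signal, the mean of TPM scaled between mice by median-by-ratio, and served only as a check: recomputed for the members they differed by at most 4.6e-09. Of the expected counts 78.1% were whole, and all were rounded.

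The tests used edgeR 4.0.16 under R 4.3.3 (TMM, filterByExpr by time point, quasi-likelihood, Benjamini-Hochberg adjustment, threshold 0.05), with all 30 mice in 1 fit over time points without covariates. Date sets were tested with time points in the fit. A standard error is the absolute log2 fold change divided by the square root of F. CPM are TMM-normalised, and differences within date sets use log2(CPM + 1). The fits were tested on simulated data. Alternatives were DESeq2 1.42.0 size factors and test, other filters on low counts, date set added as a term, no left-foot mice, fits of 2 times alone, a threshold of 0.01, both Hspa1 copies summed, and each mouse left out. The spread with dates in the fit and the 12 h overlap without the libraries that share a title code were added after the values were seen. Values were handled in Python 3.11.15 with pandas 2.3.3 and numpy 2.4.6, plots with matplotlib 3.10.9. Likeness is Pearson's r of log2 CPM over 30 libraries among 10856 genes with a mean of at least 5 CPM.

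Same-time libraries differed beyond counting noise (chi-square per degree of freedom 9.83 to 94.7 over 39 pairs), so none of these pairs was 1 library deposited again. Libraries of different times, among them the 0 h and 12 h libraries that share a title code, were not compared in this way. Nothing in the labels states how mice were housed or processed together, and p-values measure the spread between these mice. Transcript stretches are those of GENCODE vM21 on GRCm38, which held 98.8% of the listed transcripts. The members, gene lists and tests were chosen with earlier results of these data known. Named genes are the members, up to 4 genes with the largest fold among those of a list that passed, or 2 where none passed, and the 3 genes most like each member, of which 1 is not reported here.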

Additional observations from a re-analysis of the deposited data

How the results depend on the processing

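Of 189 results of the settings that leave out no single mouse, 173 were classed as the same as the main result. Most of the 173 were counts of 0 members that stayed at 0, so that the total says little about the calls that were made. A test of the summed copies was so classed if it kept its side of the threshold and any direction. A count was so classed within a fixed ratio of the main count, so that it could differ by a member. A ratio of time means was so classed if CPM and TPM differed by less than its SD. The number of members that changed over time was 1 at a threshold of 0.01 (Hspa1a) and 4 with DESeq2's test, and 1 to 3 with each mouse left out. Against 0 h, a fit of the 2 times alone gave 1 member at 12 h (Hsph1), and removal of the left-foot mice gave 1 at 24 h (Hspa1a) and 1 at 14 d (Hspa1a). At 14 d, 1 member passed also with DESeq2's test and with the date covariate (Hspa1b in both). In the fit of the 2 times alone 1 member passed at 14 d (Hspa1a), with 592 of all genes. With the copies summed, what passed at 14 d was the sum and not a single member. With each mouse left out these counts ran from 0 to 1 at 24 h and at 14 d. Between dates, 2 members differed without the left-foot mice (Hsp90aa1 and Hspa8), where 2714 of 13718 genes differed, and 1 to 2 with each mouse left out. The share of all genes is not given here for the threshold of 0.01 or with a mouse left out, so those counts have no background. The cause of these differences between settings was not tested.

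For summed Hspa1a and Hspa1b, the adjusted p over time of 0.0364 and the log2 fold change of -0.80 at 14 d do not pass at 0.01, and without a filter on low counts the change was -0.81 (adjusted p = 0.0509), so that 0 times passed in both cases. With each mouse left out the adjusted p over time ran from 0.013 to 0.102, the 14 d change from -0.92 to -0.60, and the later times that passed from 0 to 1. The highest over the lowest time mean of the sum was 1.99 on CPM and 1.77 on TPM. DESeq2's size factors shifted the median of all genes by at most 0.0225 on the log2 scale. Of the 70 chaperone list genes tested, 9 changed over time with DESeq2's test (18.1% of all genes) and 11 with the date covariate (12.2%), against 5 in the main fit (9.01%). With each mouse left out this count ran from 2 to 8. No paired analysis was possible because replicate numbers follow the order of deposit and no 2 time points share more than 1 title code. With 3 mice per time, 1 mouse often decides a call.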
